A study of Mus musculus with 12 samples.

Results

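The membrane-spanning 4A family was followed across RNA-seq libraries of mouse lung endothelial cells (MLECs), in which 10 of its genes were examined out of 28689 genes in the table. The genes were Ms4a4a, Ms4a4b, Ms4a4c, Ms4a4d, Ms4a6b, Ms4a6c, Ms4a6d, Ms4a7, Ms4a8a and Ms4a14. They were chosen by name after their expression values in these same libraries were known, so their levels and fold changes are a description, and no p is given for any of them. The study compared 6 control (CTR) libraries with 6 double-knockout (dKO) libraries. The dKO mice carried VE-CAD-CreERT2, a tamoxifen-inducible Cre driven by the VE-cadherin promoter of endothelial cells, with floxed alleles of both transcription factor genes Sp1 and Sp3. The CTR mice were littermates without Cre. Both groups carried Sp1 fl/fl and Sp3 fl/fl, and both received tamoxifen, so the groups differed in Cre as well as in the deletion. Cells came from digested lungs of adult male mice, were selected with CD31 beads, grown to confluency, selected again with ICAM2 beads and used at early passage. The number of mice behind a library was not given in the sources used here, and any p below measures the spread between libraries, which may be technical. In such bulk cultures, a change in the number of cells of a type cannot be told apart from a change in RNA per cell.

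Values were FPKM, which is the fragment number scaled to transcript length and library total. A library held 15523054 to 17938286 fragments on genes, and no 2 libraries of a group were alike within sampling noise. Sp1 was 19.4 to 23.7 FPKM in CTR and 8.42 to 12.1 FPKM in dKO libraries, without overlap, whereas Sp3 was 24.2 to 31.1 and 22.5 to 26.9 FPKM, with overlap. An RNA value over a whole gene does not show whether a floxed part of it was lost. By immunofluorescence, the paper reports less Sp1 and Sp3 in the aortic endothelium of dKO mice. The cultures contained the endothelial marker Cdh5 at 88.9 ± 16.1 FPKM (SD, n = 6) in CTR, beside Lyz2, the lysozyme gene of macrophages and other myeloid cells, at 746 ± 160 FPKM (SD, n = 6) and the collagen gene Col1a1 of fibroblasts at 1173 ± 65.1 FPKM (SD, n = 6). Each was the highest in CTR of the markers used for its cell type. Lower ones were Kdr of endothelium, Csf1r of macrophages and Dcn of fibroblasts, with CTR means of 4.85, 2.53 and 6.82 FPKM. The share of a cell type cannot be read from such levels. dKO replicate 3 and CTR replicate 5 stood apart for many of the Ms4a genes, and values without them are given for the results they move most.

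Ms4a proteins cross the membrane several times and sit in the plasma membrane or in endosomes, where several of them associate with immune receptors and their signalling chains. The best known relatives are Ms4a1, which is CD20 of B cells, and Ms4a2, the beta chain of the high-affinity IgE receptor of mast cells. Most of the genes followed here are known from myeloid cells, and Ms4a4a and Ms4a7 in particular are used as markers of macrophages. The genes lie side by side on chromosome 19. In the GENCODE annotation of GRCm39 the cluster held 21 Ms4a genes over 679 kb, chr19:10939657-11618215, with 6 on the plus and 15 on the minus strand.

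The sequence before the start of 5 genes is shown because these genes span the patterns described below: the genes with the largest changes (Ms4a4a, Ms4a6b, Ms4a6c), Ms4a7, and the abundant Ms4a4d, which was not higher in dKO libraries. Each is written 5′ to 3′ on the strand of its gene, from GRCm39, starting 250 bases before the start of the canonical transcript and leaving out bases that belong to an annotated exon of another transcript. Capitals mark matches to the motifs searched on both strands. These were the GC box GGGCGG, which is the binding motif of Sp1 and Sp3, and the interferon element GAAANNGAA. The last was GAGGAAGT, a form of the site bound by PU.1, a myeloid transcription factor. The intervals are chr19:11446468-11446717 (plus) for Ms4a6c, chr19:11495673-11495816 (plus) for Ms4a6b, chr19:11313511-11313758 (minus) for Ms4a7, chr19:11513884-11514133 (plus) for Ms4a4d and chr19:11352637-11352822 (plus) for Ms4a4a.
Ms4a6c: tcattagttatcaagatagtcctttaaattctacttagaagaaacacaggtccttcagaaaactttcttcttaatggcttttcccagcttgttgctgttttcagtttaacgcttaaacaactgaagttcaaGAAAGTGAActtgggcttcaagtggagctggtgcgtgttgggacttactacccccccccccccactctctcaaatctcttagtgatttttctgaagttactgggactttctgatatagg
Ms4a6b: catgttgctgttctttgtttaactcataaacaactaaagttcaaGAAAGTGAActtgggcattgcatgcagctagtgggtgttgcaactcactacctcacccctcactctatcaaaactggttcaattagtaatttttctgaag
Ms4a7: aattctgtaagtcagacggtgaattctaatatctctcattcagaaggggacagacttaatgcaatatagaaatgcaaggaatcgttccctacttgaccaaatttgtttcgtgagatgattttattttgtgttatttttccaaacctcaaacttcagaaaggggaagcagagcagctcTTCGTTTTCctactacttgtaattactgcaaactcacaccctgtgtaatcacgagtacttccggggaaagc
Ms4a4d: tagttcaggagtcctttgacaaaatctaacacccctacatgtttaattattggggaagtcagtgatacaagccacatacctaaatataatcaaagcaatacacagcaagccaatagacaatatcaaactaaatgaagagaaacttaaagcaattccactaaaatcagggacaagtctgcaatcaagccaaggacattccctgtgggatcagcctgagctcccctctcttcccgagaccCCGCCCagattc
Ms4a4a: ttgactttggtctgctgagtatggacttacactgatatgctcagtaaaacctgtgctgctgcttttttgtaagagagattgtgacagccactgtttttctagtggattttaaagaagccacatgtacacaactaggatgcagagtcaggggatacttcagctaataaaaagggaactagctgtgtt

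In windows from 250 bases before to 50 bases after the start, the GC box occurred in 42.5% of 21770 protein-coding genes and in 1 of the 10 Ms4a genes. That gene was Ms4a4d, with the reverse-strand match CCGCCC beginning 12 bases before the start. The interferon element occurred in 8.78% of all windows and in 3 of the 10, namely Ms4a6c, Ms4a6b and Ms4a7, beginning 119, 206 and 73 bases before the start. The exact sequence GAGGAAGT occurred in 3.07% of all windows and in 0 of the 10, and other forms of a PU.1 site were not searched. The windows of Ms4a6b and Ms4a6c carried the same 9 bases, GAAAGTGAA. The 10 windows had a GC content between 36.0% and 48.0%, against a median of 54.3% over all windows. A match or its absence in these letters is a description of the windows and shows no binding.

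Ms4a4a (chr19:11352823-11370154, plus strand), a macrophage surface protein known for rising in alternatively activated macrophages, showed the largest change of the family. Its level in CTR libraries had a lowest value of 2.81, a median of 3.35 and a highest of 7.41 FPKM, and in dKO libraries 49.2, 53.8 and 128 FPKM. No dKO library overlapped a CTR library, and the top values were those of CTR replicate 5 and dKO replicate 3. The means were 3.94 ± 1.72 and 67.8 ± 30.4 FPKM (SD, n = 6 each), a ratio of 17.2. On log2(FPKM + 1), the scale used for all fold changes below, the difference was 3.77 ± 0.24 (SE). Without dKO replicate 3 the ratio of means was 14.1, and without CTR replicate 5 it was 20.9. The CTR level rested on 338 fragments in 6 libraries and the dKO level on 5859.

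Among the 3 Ms4a6 genes, Ms4a6d (chr19:11563968-11582213, minus strand), known from macrophages, was the most abundant. Its lowest, median and highest values were 8.42, 9.68 and 17.0 FPKM in CTR and 44.4, 47.0 and 95.9 FPKM in dKO libraries. The groups did not overlap, and 5 of the 6 dKO libraries lay between 44.4 and 50.7 FPKM with dKO replicate 3 alone far above them. The means were 10.8 ± 3.26 and 55.3 ± 19.99 FPKM (SD, n = 6 each), a ratio of 5.13 and a log2 fold change of 2.24 ± 0.20 (SE). Without dKO replicate 3 the ratio was 4.38.

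Ms4a6c (chr19:11446718-11462204, plus strand) had 0.716, 1.35 and 2.11 FPKM as the lowest, median and highest CTR values and 11.3, 12.4 and 32.4 FPKM in dKO libraries. Again the groups did not overlap, and the dKO libraries other than replicate 3 fell within 11.3 to 12.7 FPKM. The ratio of means was 11.8, from 1.33 ± 0.509 to 15.6 ± 8.27 FPKM (SD, n = 6 each), with a log2 fold change of 2.76 ± 0.23 (SE), and the ratio was 9.21 without dKO replicate 3.

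Ms4a6b (chr19:11493876-11508620, plus strand), described in T cells and in myeloid cells, was low in CTR libraries, with 0.281, 0.441 and 0.704 FPKM as lowest, median and highest values. In dKO libraries these were 3.86, 5.70 and 16.4 FPKM, so every dKO library lay above every CTR library and dKO replicate 3 was again the highest. The ratio of means was 16.3, from 0.446 ± 0.146 to 7.26 ± 4.64 FPKM (SD, n = 6 each), and 12.2 without dKO replicate 3. The log2 fold change was 2.38 ± 0.24 (SE), smaller than that of Ms4a6c although the ratio was larger, since the added 1 FPKM weighs on low values. With 0.1 FPKM added it was 3.61.

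Ms4a7 (chr19:11298403-11313510, minus strand), a marker of tissue macrophages, had 0.366, 0.379 and 0.643 FPKM in CTR and 1.67, 3.01 and 5.23 FPKM in dKO libraries as lowest, median and highest values. The groups did not overlap. Its highest dKO library was replicate 5, not replicate 3, which had 4.32 FPKM. The ratio of means was 7.50, from 0.427 ± 0.108 to 3.20 ± 1.37 FPKM (SD, n = 6 each). The ratio was 8.34 without CTR replicate 5. The log2 fold change was 1.497 ± 0.18 (SE), just below the threshold of 1.5, but it was 2.56 with 0.1 in place of 1 FPKM added and 2.80 by limma-voom on recovered fragments.

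Ms4a8a (chr19:11044835-11058466, minus strand), which has been described in alternatively activated macrophages, was already well expressed in CTR libraries. The lowest, median and highest values were 16.5, 21.0 and 26.9 FPKM in CTR and 23.9, 30.6 and 44.7 FPKM in dKO libraries. The groups overlapped, with 4 of the 6 dKO libraries above all CTR libraries. The means were 21.1 ± 4.38 and 31.2 ± 7.25 FPKM (SD, n = 6 each), a ratio of 1.48 and a log2 fold change of 0.54 ± 0.15 (SE). Without dKO replicate 3 the ratio was 1.35.

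Ms4a4d (chr19:11514134-11537905, plus strand) was the most abundant Ms4a gene of CTR libraries and did not follow the others. It measured 50.2, 66.1 and 78.2 FPKM in CTR and 30.1, 53.2 and 74.2 FPKM in dKO libraries as lowest, median and highest values. The groups overlapped widely, and 2 dKO libraries, replicates 1 and 3, lay below all CTR libraries. The means were 65.0 ± 9.39 and 54.5 ± 15.8 FPKM (SD, n = 6 each), a ratio of 0.840 and a log2 fold change of -0.29 ± 0.18 (SE). It lies between Ms4a6b and Ms4a6d on the chromosome, both of which were without overlap between the groups.

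The remaining 3 genes were close to the limit of detection. Ms4a4c, next to Ms4a4a, had 28 fragments in all CTR and 152 in all dKO libraries, of which dKO replicate 3 alone gave 94. Its mean was 0.156 ± 0.0633 FPKM in CTR and 0.834 ± 1.10 FPKM in dKO libraries (SD, n = 6 each), a ratio of 5.33 that fell to 2.49 without dKO replicate 3. Ms4a4b, studied in T cells, had 32 and 80 fragments and means of 0.0588 ± 0.0364 and 0.146 ± 0.0799 FPKM (SD, n = 6 each). Ms4a14 had 23 and 99 fragments and means of 0.0556 ± 0.0603 and 0.237 ± 0.186 FPKM (SD, n = 6 each), with 0 fragments in CTR replicate 2. The groups overlapped for each of these 3 genes, so no more than their low level can be read from them.

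**Figure D1:**
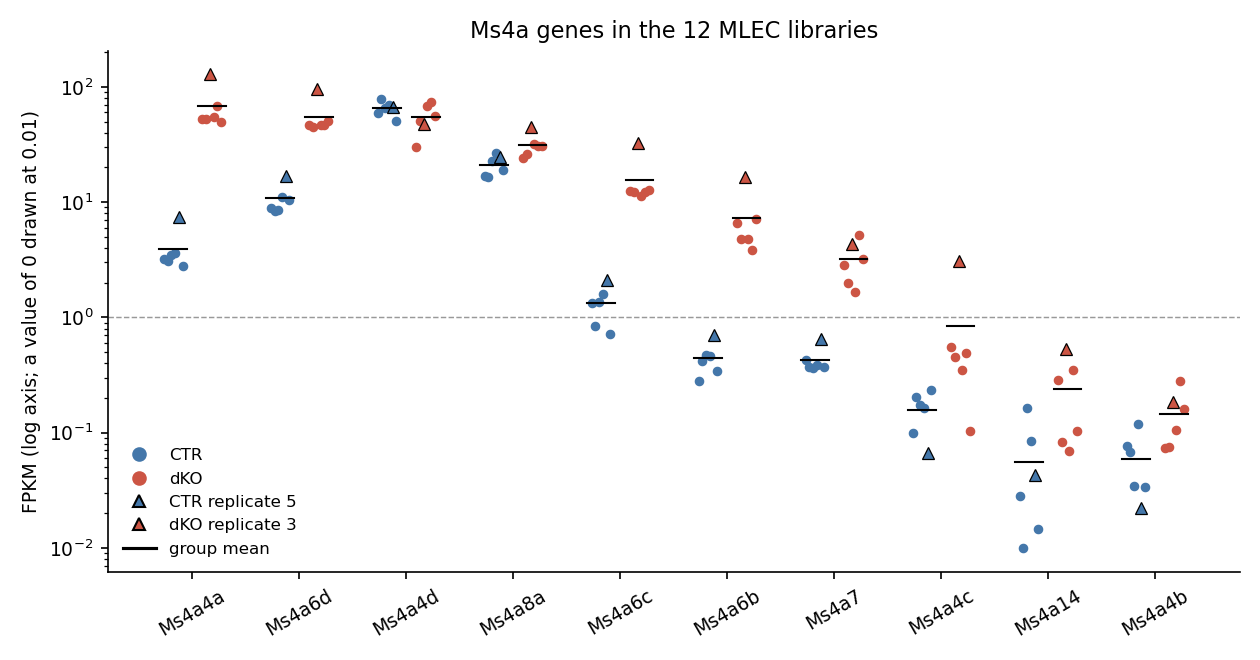
FPKM of the 10 Ms4a genes in each library on a log axis, ordered by their dKO mean, with CTR in blue, dKO in red, group means as black bars and triangles for CTR replicate 5 and dKO replicate 3; the dashed line is at 1 FPKM. The groups are apart for Ms4a4a, Ms4a6d, Ms4a6c, Ms4a6b and Ms4a7, overlap for Ms4a4d and Ms4a8a, and 7 of the 10 genes have their highest dKO value in replicate 3.

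Of the 10 genes, 7 had at least 1 FPKM in at least 6 libraries and entered the fit across 12467 genes, but Ms4a6b and Ms4a7 passed through their dKO libraries alone. Ms4a6c reached 1 FPKM in 4 CTR and all 6 dKO libraries, so the filter favoured its entry into the fit as well. In that fit, limma with Benjamini-Hochberg adjustment called 20.4% of all tested genes higher and 32.6% lower in dKO libraries at an adjusted p under 0.05. Of the Ms4a genes, 6 were among the higher ones and Ms4a4d was not called. With a log2 fold change over 1.5 as a further condition, 1.43% of all tested genes were higher, and Ms4a4a, Ms4a6b, Ms4a6c and Ms4a6d were among them. All dKO libraries lay above all CTR libraries for 11.3% of the tested genes. The same held for 5 of the 10 Ms4a genes, all 5 among those tested, so these shares have different bases. These counts describe genes chosen on this contrast and support nothing further.

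The order of the family by FPKM changed between the groups. In CTR libraries it ran from Ms4a4d through Ms4a8a, Ms4a6d, Ms4a4a and Ms4a6c down to Ms4a6b and Ms4a7, by FPKM. Ms4a8a and Ms4a6d touched in range, as 17.0 FPKM in CTR replicate 5 exceeded the lowest Ms4a8a value of 16.5, and Ms4a6b and Ms4a7 did not differ beyond their spread. In dKO libraries Ms4a4a, Ms4a6d and Ms4a4d led with overlapping ranges, followed by Ms4a8a, Ms4a6c, Ms4a6b and Ms4a7. Ms4a8a, Ms4a6c and Ms4a6b overlapped through dKO replicate 3 alone, as the other 5 dKO libraries had 23.9 to 31.8, 11.3 to 12.7 and 3.86 to 7.08 FPKM. Other ranges overlapped without it. Ms4a7 exceeded Ms4a6b in dKO replicate 5, with 5.23 against 3.86 FPKM. Ms4a8a in dKO replicate 4 (31.8 FPKM) exceeded Ms4a4d in dKO replicate 1 (30.1 FPKM). By FPKM, Ms4a4a was below Ms4a6d in each CTR library and above it in 5 of the 6 dKO libraries. This order depends on the gene length that the fragments are divided by. The length recovered for Ms4a4a was 836 bases against 1424 annotated, and for Ms4a6d it was 1735 bases, as annotated. In fragments, Ms4a4a had 5859 in dKO libraries and Ms4a6d had 9891.

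**Figure D2:**
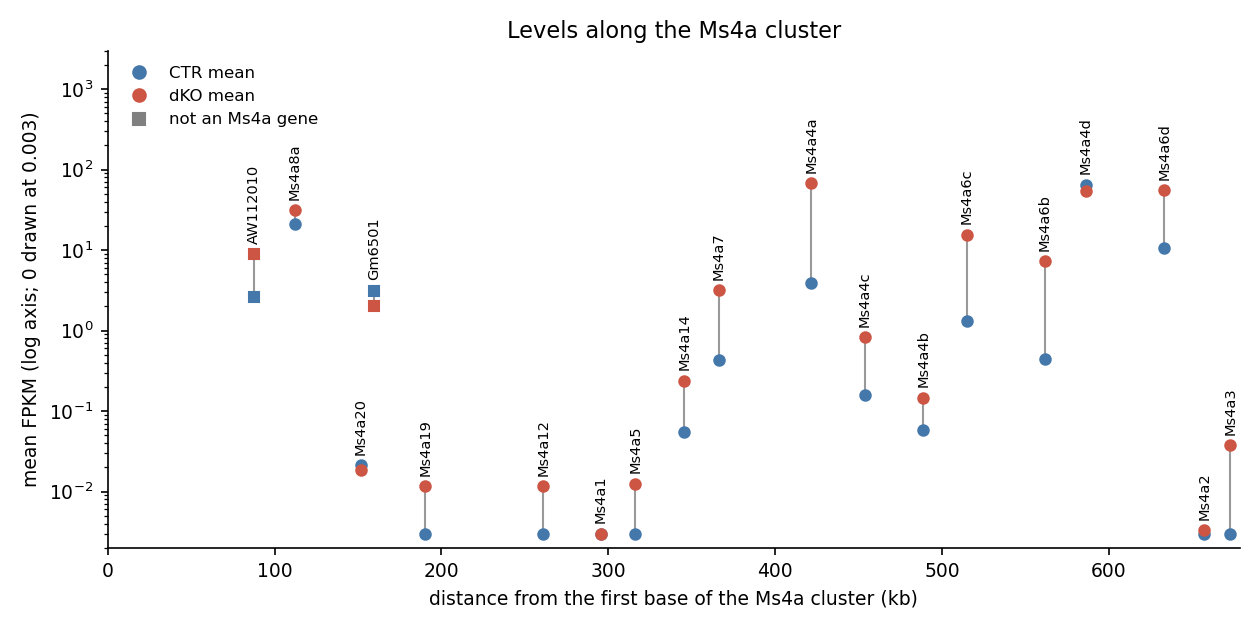
Mean FPKM (log axis) of the 17 Ms4a genes in the table and of 2 other tested genes between them, in CTR (blue) and dKO (red), against the distance in kb from the first base of the cluster. Ms4a6b and Ms4a6d, with wide gaps between the groups, flank Ms4a4d, whose means are 65.0 and 54.5 FPKM, and the genes near 300 kb are close to 0.

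The other Ms4a genes were almost silent. Of the 21 annotated, 17 were in the table, and the 7 not described above (Ms4a1, Ms4a2, Ms4a3, Ms4a5, Ms4a12, Ms4a19 and Ms4a20) had at most 8 fragments in the 6 libraries of a group. Ms4a3, known from granulocyte and monocyte progenitors, had 0 fragments in CTR and 7 in dKO libraries. Ms4a1 had 1 and 0, and Ms4a2 had 0 and 1. The 4 remaining genes, Ms4a10, Ms4a13, Ms4a15 and Ms4a18, were not analysed here. Tmem176a and Tmem176b, relatives of the family on another chromosome that are expressed in myeloid cells, were 83.8 ± 43.4 and 96.4 ± 48.8 FPKM in CTR and 110 ± 42.7 and 140 ± 53.9 FPKM in dKO libraries (SD, n = 6 each). Their groups overlapped, and neither was called (limma adjusted p = 0.334 and 0.183).

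The genes on either side of the cluster had smaller differences than Ms4a4a and the Ms4a6 genes. On the side of Ms4a10, Tmem109, Prpf19 and Ccdc86 had log2 fold changes of 0.02, -0.15 and -0.10 and were not called (limma adjusted p = 0.852, 0.208 and 0.679), and Zp1 and Ptgdr2 had at most 12 fragments in a group. On the side of Ms4a3, Mrpl16 fell by 0.29 on the log2 scale (limma adjusted p = 0.0123) and Stx3, a membrane fusion protein, rose by 0.31 (limma adjusted p = 0.0196). Oosp1, Cblif and Or10v5 did not pass the filter on low values. Within the cluster, 2 non-Ms4a genes, named after their values were seen, passed it. AW112010, a transcript known from activated macrophages, rose from 2.62 ± 0.730 to 8.83 ± 3.80 FPKM (SD, n = 6 each), and Gm6501 fell from 3.15 ± 0.474 to 2.01 ± 0.364 FPKM (SD, n = 6 each). In limma, their adjusted p was 0.000184 and 0.00173. BE692007, also named after its values were seen, lies on the minus strand across Ms4a6c, and it was 0.216 ± 0.0424 and 0.792 ± 0.504 FPKM (SD, n = 6 each). Whether counting used strand was not given in the sources used here, so reads of BE692007 and Ms4a6c cannot be told apart where they overlap.

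Similarity between the transcripts bears on how well fragments were assigned. Ms4a6b and Ms4a6c were 86.3% identical over 1160 aligned bases, Ms4a6b and Ms4a6d 81.9% over 882, and Ms4a4b and Ms4a4c 82.8% over 1444. Ms4a4a reached at most 69.9% with another of the 10. Stretches of at least 150 bases with at least 95% identity to another gene were found for Ms4a6c only, the longest being 251 bases shared with Gm44997 at 95.6%. The authors kept uniquely aligned reads, so fragments in such stretches may be missing from Ms4a6c.

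Markers of macrophages were measured beside the family because most of its genes are known from these cells. All 11 macrophage markers on the list were tested and all 11 were called higher in dKO libraries by limma. Itgam, named after its values were seen, reached 1 FPKM in 4 CTR and all 6 dKO libraries, so the filter favoured its part in this count. The log2 fold changes of the 11 markers had a median of 1.84, against -0.10 over all tested genes. They ran from 0.54 ± 0.17 (SE) for Mertk, a receptor for dying cells, and 1.12 ± 0.23 for the mannose receptor Mrc1 to 3.63 ± 0.26 for C1qc and 3.66 ± 0.23 for C1qa, which encode chains of complement C1q. Their summed level was 722 to 1266 FPKM in CTR and 2394 to 5314 FPKM in dKO libraries, and none of the 11 was at 0 in all libraries. Without CTR replicate 5 and dKO replicate 3, an exclusion chosen after the data were seen, 11 of 11 markers were called higher, and the median was 1.78. The part of macrophage content in the Ms4a values was not tested.

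**Figure D3:**
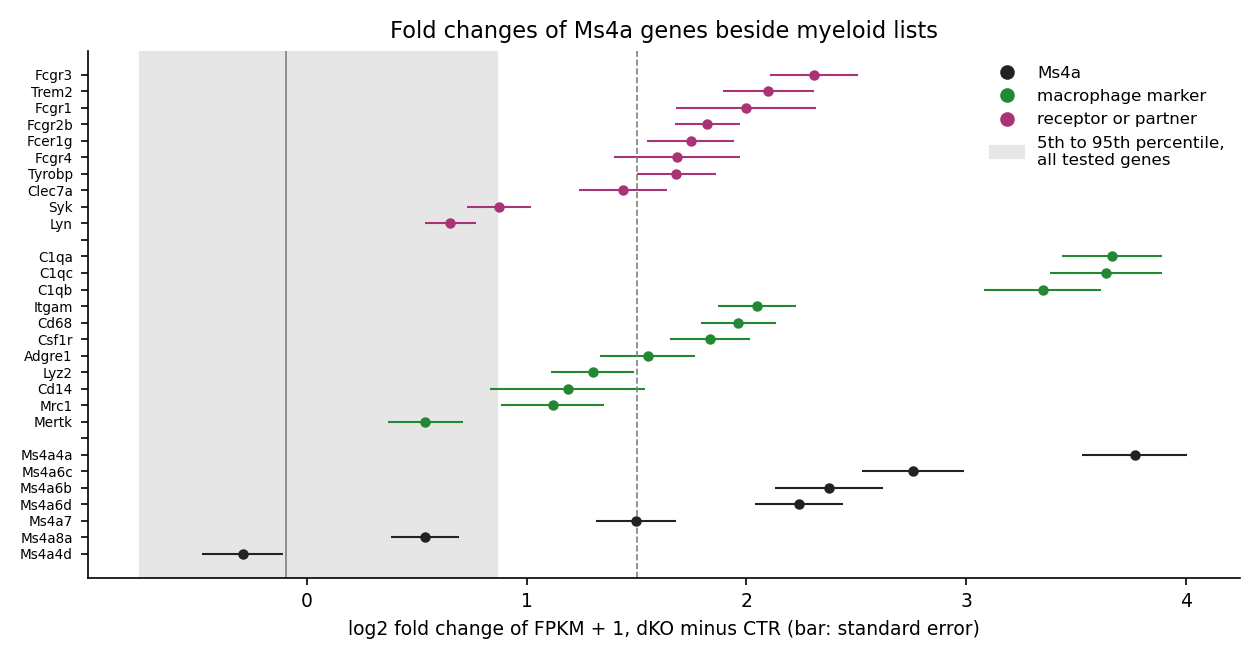
Log2 fold change of FPKM + 1 (dKO minus CTR) with its standard error for the 7 Ms4a genes that passed the filter (black), 11 macrophage markers (green) and 10 receptors and partners (purple), beside the 5th to 95th percentile of all tested genes (grey, -0.76 to 0.86). Ms4a4a sits beside the C1q genes above 3, Ms4a8a beside Mertk at 0.54, and Ms4a4d inside the grey band; the dashed line is at 1.5.

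The same libraries were high for both. dKO replicate 3 gave the highest dKO value in 10 of the 11 macrophage markers, the exception being Cd14 (64.0 FPKM in replicate 5), and in 7 of the 10 Ms4a genes. Its summed marker level was 5314 FPKM, and the next highest dKO library had 3483 FPKM. CTR replicate 5 gave the highest CTR value in 6 of the 11 markers and in 5 of the 10 Ms4a genes, Ms4a4a, Ms4a6b, Ms4a6c, Ms4a6d and Ms4a7. Its summed level of 1153 FPKM was below the 1266 FPKM of CTR replicate 4. Most of both sums was Lyz2, at 830 FPKM in CTR replicate 5 and 999 FPKM in CTR replicate 4, so their order follows this gene. The 3 Ms4a genes that peaked elsewhere among the dKO libraries were Ms4a4b, Ms4a4d and Ms4a7, each in replicate 5. The summed marker level of that library was the lowest of the dKO libraries, but its markers were mixed, with Cd14 high and Mrc1 low.

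**Figure D4:**
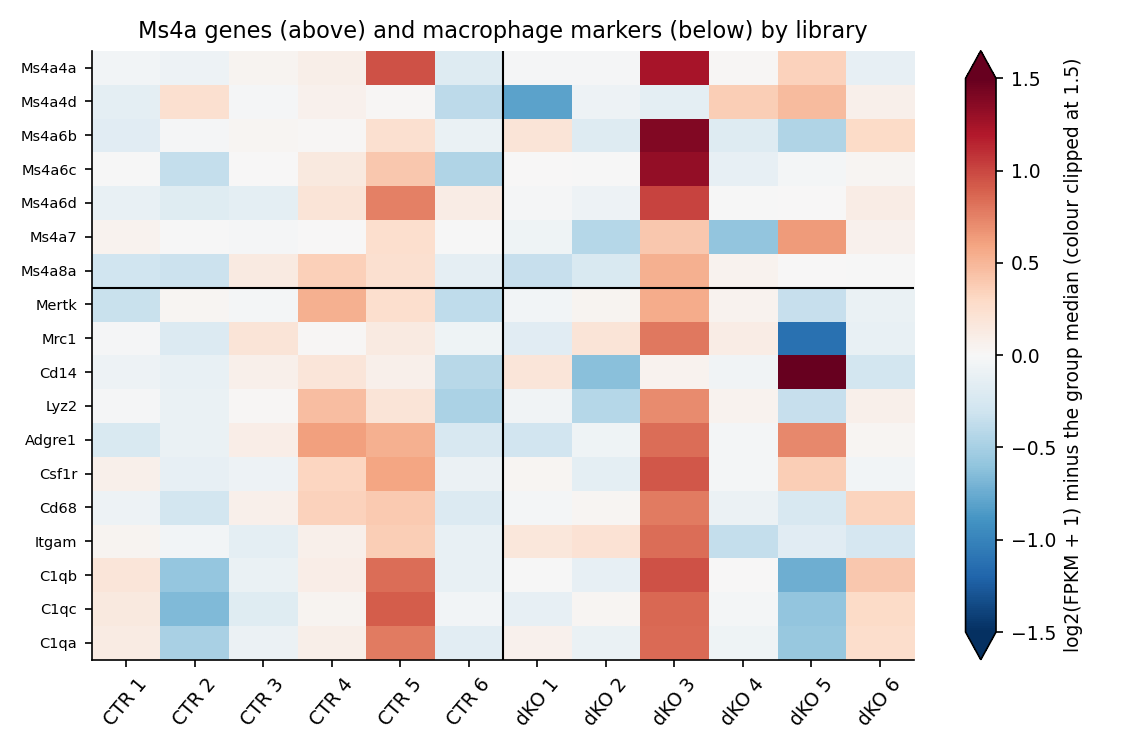
Deviation of log2(FPKM + 1) from the median of its own group, for 7 Ms4a genes (upper block) and 11 macrophage markers (lower block) in each library, in red above and blue below the median. Of the 18 genes, 17 lie above the median in dKO replicate 3, all but Ms4a4d, and 18 in CTR replicates 4 and 5, while dKO replicate 5 is mixed, with Cd14 high and Mrc1 low.

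Set against the mean of the macrophage markers in the same library, the Ms4a genes did not move alike. This within-library difference, on log2(FPKM + 1), uses the contrast the genes were chosen on and is given without a test. The markers did not move alike either, with log2 fold changes from 0.54 for Mertk to 3.66 for C1qa. Distance from the marker mean therefore does not set an Ms4a gene apart from single markers. Relative to the markers, Ms4a4a was 1.75 higher in dKO than in CTR libraries and Ms4a6c 0.74 higher, both without overlap between the groups. Ms4a6b (0.36) and Ms4a6d (0.22) kept overlapping groups, as did Ms4a7 (-0.52). Ms4a8a was lower relative to the markers by -1.48 and Ms4a4d by -2.31, without overlap. For the low genes these differences between the groups depended on the added 1 FPKM. With 0.1 FPKM, an alternative chosen after the data were seen, Ms4a7 relative to the markers was 0.42 higher in dKO in place of lower. Its groups still overlapped. Ms4a6b was 1.47 and Ms4a6c 1.28 higher in dKO relative to the markers, both without overlap. These 3 genes stayed below the marker mean in both groups. The value of Ms4a4a in dKO replicate 3 was -0.04, at the top of a dKO range that began at -0.72, with CTR libraries between -2.39 and -1.74.

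**Figure D5:**
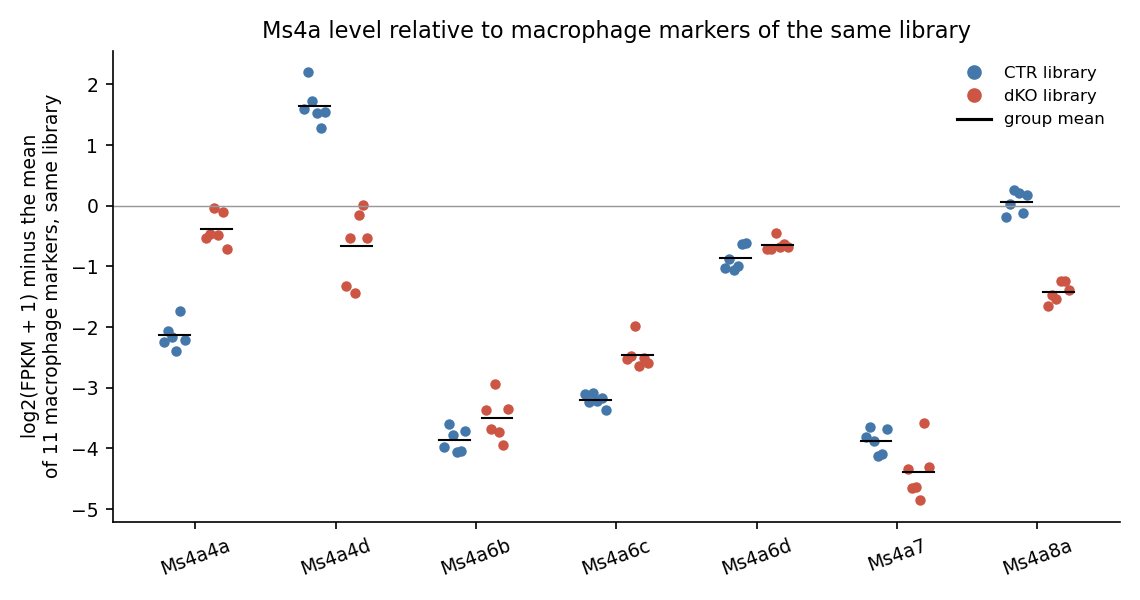
Log2(FPKM + 1) of 7 Ms4a genes minus the mean of 11 macrophage markers in the same library, for CTR (blue) and dKO (red) libraries with group means as bars. With 1 FPKM added, Ms4a4a and Ms4a6c are higher in dKO without overlap, Ms4a6b, Ms4a6d and Ms4a7 overlap (with 0.1 FPKM added, Ms4a6b does not and Ms4a7 changes sign), and Ms4a4d and Ms4a8a are lower without overlap.

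Receptors and signalling chains with which Ms4a proteins are known to work, or which share a pathway with them, rose together. Of 11 genes on the list, 10 were in the table and all 10 were called higher by limma. Fcgr1 passed the filter through its dKO libraries alone, so its part in this count was favoured by the filter. Their log2 fold changes had a median of 1.72. The lipid-sensing receptor Trem2 went from 2.53 ± 0.804 to 14.6 ± 5.21 FPKM (SD, n = 6 each), and Tyrobp, its signalling adaptor, from 50.5 ± 12.5 to 164 ± 45.0 FPKM (SD, n = 6 each). Fcer1g, the gamma chain shared by IgE and IgG receptors, went from 30.2 ± 8.76 to 104 ± 33.2 FPKM, and the IgG receptor Fcgr3 from 19.9 ± 4.53 to 105 ± 34.1 FPKM (SD, n = 6 each). Clec7a, the beta-glucan receptor also called Dectin-1, went from 8.97 ± 2.16 to 26.8 ± 9.94 FPKM (SD, n = 6 each). The further IgG receptors Fcgr1, Fcgr2b and Fcgr4 had log2 fold changes of 1.999 ± 0.32, 1.82 ± 0.15 and 1.68 ± 0.29 (SE), and the kinases Syk and Lyn of 0.87 ± 0.15 and 0.65 ± 0.12 (SE). The highest dKO value was in replicate 3 for all 10. Without that library all 10 were called higher, the median was 1.57, and Fcgr1 had a ratio of 7.35 in place of 11.1.

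Programmes in which Ms4a genes are often measured were compared next. Of 11 interferon-response genes, 10 were tested and all 10 were called higher by limma. Cxcl10, named after its values were seen, passed the filter through its dKO libraries alone, so its part in this count was favoured by the filter. Rsad2, Usp18 and Ifi44, also named after their values were seen, reached 1 FPKM in 4, 3 and 1 CTR libraries. Each did so in all 6 dKO libraries, so the filter favoured them as well. The log2 fold changes of the 10 genes had a median of 1.94. They included Ifit3 at 3.16 ± 0.34 and Isg15 at 2.65 ± 0.34 at the upper end, and Ifit2 at 1.03 ± 0.21 (SE) towards the lower end. The summed level of the 11 genes was 26.7 to 38.0 FPKM in CTR and 98.5 to 417 FPKM in dKO libraries, with the highest value in dKO replicate 3, and without that library all 10 were called. Of 7 markers of alternative activation, 4 were tested, and 2 were called higher. These were Arg1, which breaks down arginine, at 28.8 ± 16.6 and 370 ± 191 FPKM, and the haemoglobin receptor Cd163 at 2.35 ± 0.685 and 6.59 ± 1.38 FPKM (SD, n = 6 each). Chil3, at 1107 ± 243 and 1061 ± 404 FPKM (SD, n = 6 each), and Mgl2 did not pass the test (limma adjusted p = 0.660 and 0.781). Among the 3 too low to be tested, and named after their values were seen, Ccl24 was 0.277 ± 0.132 and 4.73 ± 2.06 FPKM and Folr2 0.107 ± 0.0803 and 0.660 ± 0.249 FPKM (SD, n = 6 each), each without overlap between the groups. The third, Retnla, was 0.0836 ± 0.162 and 0.0812 ± 0.0964 FPKM (SD, n = 6 each), and its groups overlapped.

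Other cell types were checked with short marker lists. Of the 10 endothelial markers all 10 were called higher. Their log2 fold changes had a median of 0.83, and their summed level was 188 to 309 FPKM in CTR and 358 to 483 FPKM in dKO libraries. Of 5 fibroblast markers tested, Dcn was called higher and Col1a1 and Col1a2 were called lower. Among 4 monocyte markers only Plac8 was tested and it was not called (limma adjusted p = 0.214), and of 2 dendritic markers tested Clec9a was called higher and Zbtb46 was not. Clec9a reached 1 FPKM in 4 CTR and all 6 dKO libraries, so the filter favoured it. No T and NK cell, B cell or ciliated cell marker passed the filter on low values. Neither of 2 mast cell markers tested and none of 3 alveolar type 1 markers tested was called in limma (adjusted p between 0.116 and 0.562). The part of these cells in the Ms4a values was not tested.

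The genes whose pattern was most like that of the family were found from deviations within each group, so that the difference between dKO and CTR did not enter. For each gene the group mean of log2(FPKM + 1) was subtracted, and Pearson's r was taken over the 12 libraries with the mean deviation of the 7 Ms4a genes, among 7868 other genes with a mean of at least 5 FPKM. The 5 highest were Csf1r (r = 0.943), Nckap1l (0.919), Fcgr2b (0.919), Anpep (0.918) and Ninj1 (0.912), with Spearman's rho of 0.699, 0.636, 0.531, 0.776 and 0.881. Csf1r is the growth factor receptor of macrophages and Nckap1l an actin regulator of blood cells. The points share their libraries and depth across all genes, and without CTR replicate 5 and dKO replicate 3 r was 0.753, 0.503, 0.408, 0.752 and 0.787. These values are a description with no test.

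Ms4a4d followed another set of genes. Its 5 highest were Pam, Adamts2, Efemp2, Slc44a1 and Slc66a3, with r from 0.930 to 0.946, of which Adamts2 and Efemp2 act in the assembly of collagen and elastic fibres. Against marker means, Ms4a4d had r = 0.73 with fibroblast, 0.66 with endothelial and -0.06 with macrophage markers. Ms4a4a had r = 0.89 with macrophage markers, which was 0.28 without CTR replicate 5 and dKO replicate 3, whereas Ms4a6c had 0.96 and still 0.86 without them. Ms4a6d went from 0.93 to 0.56, Ms4a6b from 0.82 to 0.36, Ms4a8a from 0.83 to 0.70 and Ms4a7 from 0.42 to 0.02. Over the 10 other libraries, Ms4a8a had r = 0.67 with endothelial and 0.63 with fibroblast markers, close to its value with macrophage markers. Ms4a4a had 0.52 and 0.43, above its value with macrophage markers, and Ms4a6c had 0.23 and 0.25.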

How the data were processed

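RNA-seq libraries of MLECs from CTR and dKO mice, 6 each, were analysed. The authors used FastQC for read quality and Trimmomatic for trimming, then STAR for alignment to mm39, with a second alignment of the unique reads that sambamba had extracted. The submitters' processing notes also list Bowtie2 2.2.3, HISAT2 2.1.0, TopHat2 and DESeq2. The counting program, annotation and strand setting were not given in the sources used here. The authors deposited FPKM values, so levels are per gene length and library total, and a gene that takes a large share lowers all others. Columns named CTR were matched to the control samples by group and number. The other 6 columns are named after tamoxifen, which both groups received. They were taken as the knockout samples by elimination, with their numbers as replicates.

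Of 28689 genes, 27706 (96.6%) were matched by Ensembl identifier to GENCODE on GRCm39. Fragment numbers were recovered from the FPKM for all 28689 genes within a tolerance of 0.001 of a whole number, and were used for depth and 1 alternative. Genes that reached 1 FPKM in 6 or more libraries entered the test on log2(FPKM + 1), made with limma 3.58.1 in R 4.3.3 (lmFit, eBayes with trend, no block), with Benjamini-Hochberg adjustment; a gene was called at an adjusted p under 0.05. The test was tested on simulated data. Transcripts were compared with BLAST 2.17.0. The genes and lists were chosen with earlier results of these data known. All 10 Ms4a genes are named, with the rest of the family, 5 table genes on each side of the cluster, all receptors and partners, up to 2 genes at each end of the other lists, and the 5 genes most alike within groups. A single gene that this rule would name is not reported here. Genes named outside this rule are marked or serve as cell-type checks. Alternatives were other pseudocounts, filters, TPM, median-of-ratios scaling, limma-voom on recovered fragments, a replicate block and leaving out libraries.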

Additional observations from a re-analysis of the deposited data

Results flagged for a closer look

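Values were compared within groups of 6 libraries for the Ms4a genes, the receptors and partners and related genes. In 44 such groups, 14 had a highest library far from the rest by Dixon's criterion, which picks out about 1 in 20 independent groups by chance. The Ms4a genes were chosen with these libraries known and the genes rise together within a library, so the values are a description and their number is no test. Of the 14, 10 were in dKO replicate 3 and 4 in CTR replicate 5.

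In dKO replicate 3, Ms4a4a was 128 FPKM against 49.2 to 68.6 in the other dKO libraries, Ms4a4c 3.06 against 0.103 to 0.552, Ms4a6b 16.4 against 3.86 to 7.08, Ms4a6c 32.4 against 11.3 to 12.7, and Ms4a6d 95.9 against 44.4 to 50.7 FPKM. In the same library Tyrobp was 251 FPKM against 121 to 169, Fcer1g 169 against 82.5 to 107, Fcgr1 17.3 against 1.96 to 5.67, Fcgr2b 21.8 against 11.4 to 12.8, and Lyn 28.6 against 17.6 to 19.7 FPKM. In CTR replicate 5, Ms4a4a was 7.41 FPKM against 2.81 to 3.63 in the other CTR libraries, Ms4a6d 17.0 against 8.42 to 11.2, Ms4a7 0.643 against 0.366 to 0.425, and Trem2 4.03 against 1.60 to 2.51 FPKM.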

How the results depend on the processing

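No log2 fold change of the 10 genes changed sign under any alternative run for it. Ms4a4b, Ms4a4c and Ms4a14 had only 2 alternatives each, and none of these left out a library. Of 12467 genes, 6614 were called, against 4222 when 5 FPKM in at least 6 libraries was required. The 178 genes higher past a log2 fold change of 1.5 became 320 with a pseudocount of 0.1, 343 with 0.01, 484 with 0.1 and no filter, 289 after rescaling to TPM and 913 by limma-voom on recovered fragments. Median-of-ratios scaling moved the median log2 fold change of all genes from -0.10 to -0.02 and the split from 2549 higher to 3213 higher of 6225 called. Leaving out 1 library gave 5858 to 6841 called genes and 166 to 190 past the fold. Ms4a genes called numbered 6 in each, and past the fold 4 to 5, since Ms4a7 lay at the threshold with 1.37 to 1.62. With 5 FPKM in at least 6 libraries required, 4 Ms4a genes were called and 3 past the fold, as Ms4a6b and Ms4a7 did not enter. By limma-voom, which tested all 28689 genes, 11.1% of genes were higher and 8 Ms4a genes were called, Ms4a4b and Ms4a14 among them, with log2 fold changes of 1.27 and 2.20. Without CTR replicate 5 and dKO replicate 3, chosen after the data were seen, 17.8% of all tested genes and 6 Ms4a genes were higher. These Ms4a counts describe genes chosen on this contrast. All 11 macrophage markers were called in each alternative. The replicate block gave 6955 called genes and the same 6 and 4 Ms4a counts. Libraries of equal number had correlations of -0.11 to 0.57, and 2 of 6 correlated best with their own number, so numbers were not taken as pairs. Levels below about 0.1 FPKM rested on few fragments (Ms4a4b and Ms4a14 on 32 and 23 in CTR), and calls there depended on the method.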
